A study of Homo sapiens with 5 samples.

Results

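The genes CTNNB1, ZNRF3, PRKAR1A, RB1, CDKN2A, CDK4, TERT, DAXX and MEN1 are known drivers of adrenocortical tumours. They were examined here for binding of SF-1 (NR5A1), the nuclear receptor that directs adrenal and gonadal development and steroidogenesis, in its 4 ChIP-seq peak lists from H295R/TR SF-1 cells. These cells derive from the H295R adrenocortical tumour cell line and raise SF-1 when doxycycline is added. A peak was assigned to a gene when its centre lay within 100 kb of the gene body on hg19. By this rule 69 peaks of 30372 fell near the 9 genes, in 55 separate places.

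Chromatin was immunoprecipitated either with a Millipore or with a Perseus Proteomics antibody against SF-1. Cells had basal SF-1 (no doxycycline) or overexpressed SF-1 (doxycycline for 3 days before fixation). The libraries of each of the 4 conditions, 3 in number, were pooled before peaks were called, and an input of 2 libraries served as control. All groups carried the inducible SF-1 construct, and the basal groups express the SF-1 of the parental tumour line. The files hold 4393 peaks for basal Millipore, 11910 for overexpressed Millipore, 6616 for basal Perseus and 7453 for overexpressed Perseus. Each peak carries only its position and a rank number, from 1 to the length of its list. The files do not say which end is best. Rank 1 was read as the best, because over all peaks low rank numbers were shared between lists more often and held the SF-1 sequence more often, and every statement on rank below rests on that reading. With 1 pooled list per condition there is no replicate error, so no difference between lists was tested, and the read depth behind each list is unknown from these files. A place with no peak in a list is a place that was not called there, which does not exclude binding. The rank is given below also as a percentage of the length of its list, so that 5% lies near the top and 95% near the bottom.

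The 9 genes fall into known groups. CTNNB1 encodes beta-catenin, the transcriptional effector of canonical Wnt signalling, and ZNRF3 encodes a membrane ubiquitin ligase that removes Wnt receptors from the cell surface. PRKAR1A encodes the regulatory subunit that holds protein kinase A inactive, in the pathway by which ACTH and cAMP drive steroidogenesis. RB1, CDKN2A and CDK4 belong to the G1/S checkpoint: CDK4 phosphorylates the retinoblastoma protein, and CDKN2A encodes an inhibitor of CDK4 and, from an upstream first exon, the ARF protein. TERT is the catalytic subunit of telomerase. DAXX is a chaperone of histone H3.3, and MEN1 encodes menin, a component of histone methyltransferase complexes. SF-1 binds DNA as a monomer, classically to an extended nuclear receptor sequence, searched here as CAAGGTCA, CAAGGTCG, CAAGGCCA or CAAGGCCG on either strand.

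DNA of the places on which the results below turn is shown first. They are the 3 places called in 3 lists, near CTNNB1, DAXX and MEN1, a neighbour of the CTNNB1 site that holds the SF-1 sequence, and a place called in 2 lists for CDK4, TERT, PRKAR1A and DAXX. All are on the plus strand of hg19, from the part called in every list of the place or from the whole place, without annotated untranslated bases, and capitals mark the SF-1 sequence on either strand.
CTNNB1, overlapping the promoter, chr3:41240801-41240879: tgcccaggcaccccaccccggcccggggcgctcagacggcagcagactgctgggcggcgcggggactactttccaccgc
CTNNB1, upstream neighbour, chr3:41240351-41240499: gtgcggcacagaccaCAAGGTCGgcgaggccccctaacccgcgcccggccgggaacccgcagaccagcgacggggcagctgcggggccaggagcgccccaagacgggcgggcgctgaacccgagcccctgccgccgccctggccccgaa
CDK4, promoter, chr12:58146231-58146299: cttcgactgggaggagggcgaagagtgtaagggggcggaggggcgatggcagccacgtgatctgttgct
MEN1, distal, chr11:64661751-64662017: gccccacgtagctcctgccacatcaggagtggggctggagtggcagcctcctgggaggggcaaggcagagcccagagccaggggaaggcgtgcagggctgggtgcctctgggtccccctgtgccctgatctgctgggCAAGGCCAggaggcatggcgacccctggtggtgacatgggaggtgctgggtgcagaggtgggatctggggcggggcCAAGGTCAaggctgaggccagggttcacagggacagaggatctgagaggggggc
TERT, distal, chr5:1181901-1181999: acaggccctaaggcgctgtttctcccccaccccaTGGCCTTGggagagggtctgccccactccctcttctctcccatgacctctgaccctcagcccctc
PRKAR1A, distal, chr17:66470451-66470699: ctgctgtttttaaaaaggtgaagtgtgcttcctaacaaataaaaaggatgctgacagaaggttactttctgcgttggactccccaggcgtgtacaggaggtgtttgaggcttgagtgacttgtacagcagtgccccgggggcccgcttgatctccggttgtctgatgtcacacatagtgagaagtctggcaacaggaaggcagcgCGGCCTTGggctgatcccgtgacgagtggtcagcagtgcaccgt
DAXX, at the KIFC1 start, chr6:33359351-33359399: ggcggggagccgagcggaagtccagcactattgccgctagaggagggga
DAXX, within B3GALT4 and WDR46, chr6:33247951-33248199: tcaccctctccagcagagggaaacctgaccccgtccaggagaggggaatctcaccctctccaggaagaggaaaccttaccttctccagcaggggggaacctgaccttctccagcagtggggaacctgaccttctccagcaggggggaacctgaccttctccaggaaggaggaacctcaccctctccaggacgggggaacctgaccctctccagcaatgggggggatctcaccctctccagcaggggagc
The printed DNA of the 2 promoters is rich in G and C, 75.9% at CTNNB1 and 63.8% at CDK4, and holds none of the 4 sequences. The last stretch is a tandem repeat: shifted by 50 bases against itself, 77.4% of its bases match.

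Every one of the 9 genes had at least 1 peak in at least 1 list, as had 84.3% of the 20163 protein-coding genes. Basal Millipore peaks lay near 2 genes, CTNNB1 and PRKAR1A (36.5% of all protein-coding genes had such a peak). Overexpressed Millipore peaks lay near 8, all but PRKAR1A (67.9% of all genes). Basal Perseus peaks lay near 7, all but RB1 and CDKN2A (52.6%), and overexpressed Perseus peaks near 7, all but ZNRF3 and PRKAR1A (56.7%). With 9 genes, each share moves by 11.1 percentage points for 1 gene. A peak centre inside the gene body was found for 6 of the 9 genes, against 38.9% of all genes.

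The 4 lists placed 4, 31, 18 and 16 peaks near the 9 genes, in the order basal Millipore, overexpressed Millipore, basal Perseus and overexpressed Perseus. The windows of the 9 genes cover 2.46 Mb of DNA. At the average density of each list they would hold 3.79, 10.3, 5.7 and 6.43 peaks. The exact Poisson 95% intervals of the counts, which cover counting error only, were 1.09 to 10.2, 21.1 to 44, 10.7 to 28.4 and 9.15 to 26. The count was thus close to the list average for basal Millipore and above it in the other lists. In overexpressed Millipore, 10 of the 31 peaks lay near TERT and 10 near MEN1, so that count was not spread evenly over the 9 genes. The interval treats every peak as independent, including those clustered near these genes. The list average takes in all known sequence, near genes or not, so other genes are the closer comparison. A protein-coding gene had a median of 3 peaks over the 4 lists (quartiles 1 and 7), and the 9 genes a median of 6 (from 2 to 15).

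**Figure D1:**
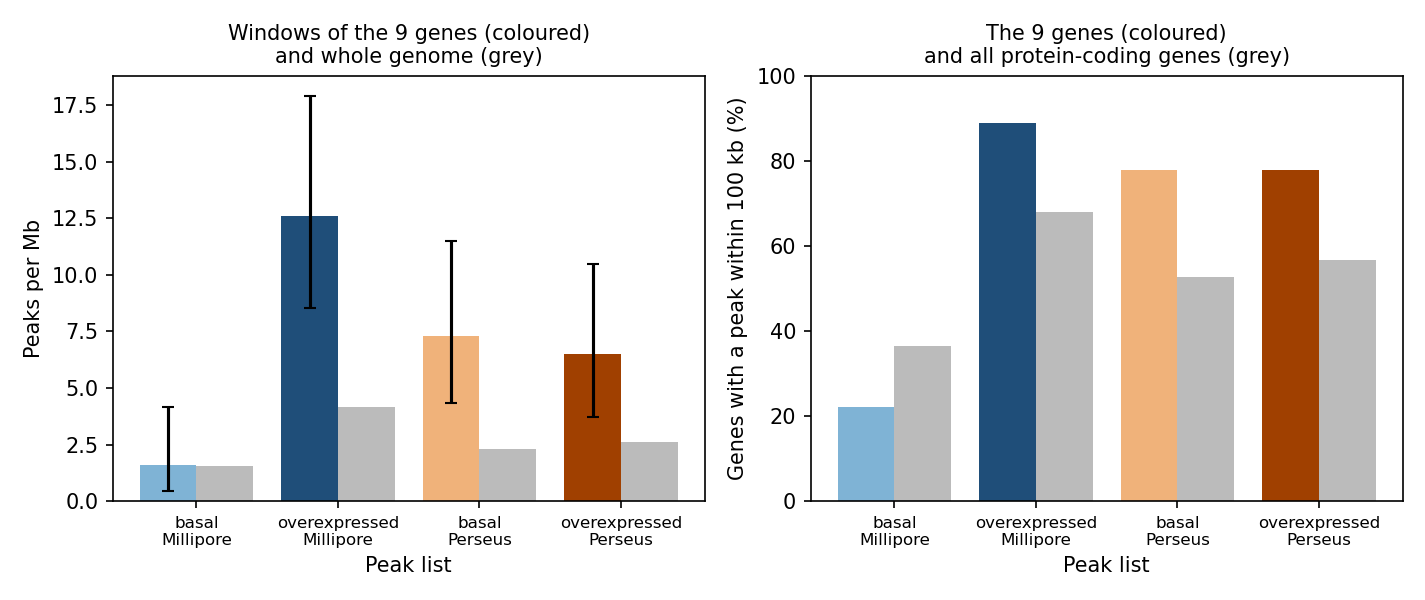
Left, peaks per Mb in the windows of the 9 genes (coloured bars, with exact Poisson 95% intervals) and over the whole genome (grey bars) for each peak list. Right, the percentage of the 9 genes (coloured) and of all protein-coding genes (grey) with at least 1 peak within 100 kb. Basal Millipore had 1.62 peaks per Mb near the genes against 1.54 over the genome, and overexpressed Millipore 12.6 against 4.17.

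TERT and MEN1 had the most peaks, 15 each, followed by CTNNB1 with 11, DAXX with 7, PRKAR1A and CDK4 with 6, ZNRF3 with 5, and RB1 and CDKN2A with 2. Among all protein-coding genes these counts stand at the 94.2nd percentile for TERT and MEN1, the 88.2nd for CTNNB1 and the 35.6th for RB1 and CDKN2A. With single lists the order of neighbours such as DAXX, PRKAR1A, CDK4 and ZNRF3, which differ by 1 peak or none, cannot be read as a difference. The wider surroundings, which include these windows, had the same genes at both ends of the order. Within 1 Mb there were 99 peaks around TERT and 101 around MEN1, against 11 around RB1 and 16 around CDKN2A, and a median of 26 for all genes. Between these ends the order differed in part, with 42 peaks within 1 Mb of ZNRF3 and 34 within 1 Mb of DAXX.

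**Figure D2:**
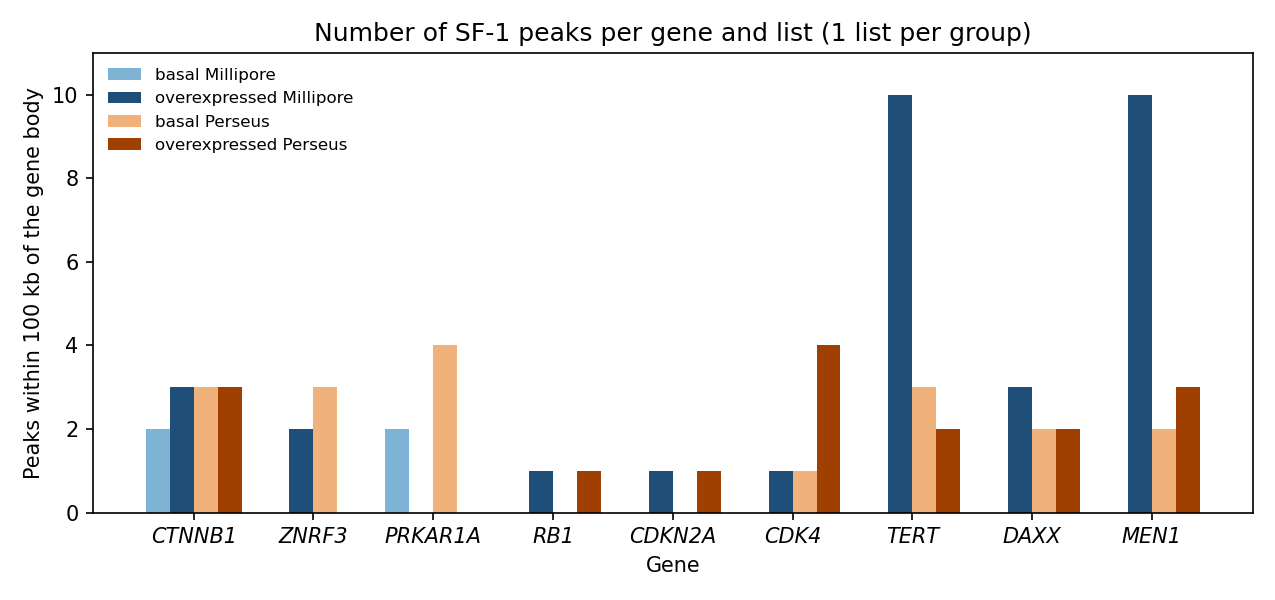
Number of peaks with centre within 100 kb of each gene body, by peak list, 1 list per condition, so bars have no error. Overexpressed Millipore reached 10 peaks at TERT and at MEN1, PRKAR1A had peaks in the basal lists only, and RB1 and CDKN2A had 1 peak in each overexpressed list.

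Most of these peaks are not at the genes themselves. Of the 69, 18 had their centre inside the body of the driver gene and 51 outside it, and for 48 the nearest protein-coding start was that of another gene. The median length of the 9 genes was 39540 bases and that of their windows 239540 bases, so most of these windows are mainly flank. The same split was not computed for all genes, so it does not show that peaks avoid the driver genes. A peak within 1 kb of any annotated transcript start was found for 5 of the 9 genes, CTNNB1, RB1, CDKN2A, CDK4 and TERT, against 26.5% of all protein-coding genes. For the canonical start alone the genes were 3, CTNNB1, RB1 and CDK4, against 20.8%. Distances below are given from the canonical start.

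**Figure D3:**
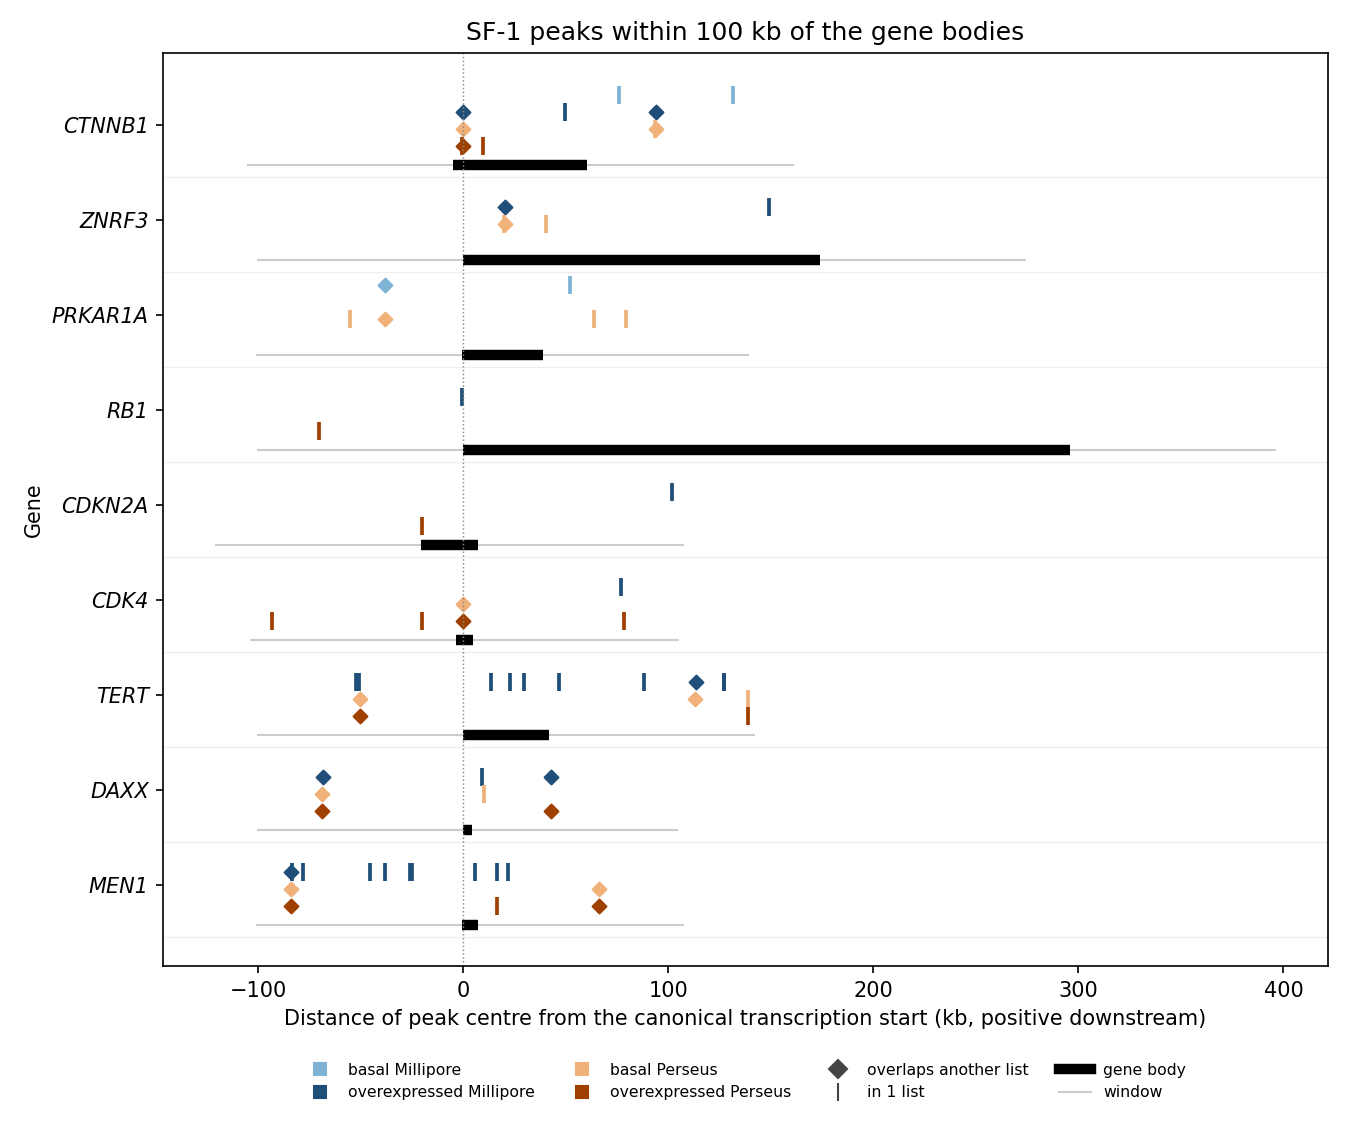
Position of each of the 69 peaks relative to the canonical start of its gene, in kb in the direction of transcription, with 1 row of marks per list. Diamonds overlap a peak of another list, ticks do not, and black bars are gene bodies within their windows (grey lines). The starts of CTNNB1 (3 lists) and CDK4 (2 lists) carry shared peaks, whereas RB1 has a single tick at its start and nothing in its body.

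In the Wnt pathway, CTNNB1 (chr3:41236232-41301587, plus strand) was covered at its canonical start, position 41240996, in 3 lists. The overexpressed Millipore peak at chr3:41240801-41241049 ranked 1052 (8.83% of its list), the basal Perseus peak at chr3:41240701-41241099 ranked 1614 (24.4%), and the overexpressed Perseus peak at chr3:41240601-41241099 ranked 1191 (16%). The shared bases overlap annotated 5′ UTR of the gene. None of the 3 peaks holds the SF-1 sequence, but an overexpressed Perseus peak immediately upstream, rank 2148 and printed above, holds CAAGGTCG. The basal Millipore list had no peak at the promoter: its 2 peaks near CTNNB1 lie in introns of the neighbour ULK4, 76 and 131 kb downstream of the start, and ranked 1401 and 3887. CTNNB1 was the only one of the 9 genes with a peak in all 4 lists, although not at the same place. Such genes make up 19.5% of all protein-coding genes.

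A second place near CTNNB1 was shared by overexpressed Millipore (chr3:41334751-41335049, rank 722, 6.06%) and basal Perseus (chr3:41334851-41334999, rank 2718, 41.1%). It lies in an intron of ULK4, 93.9 kb downstream of the CTNNB1 start. No other protein-coding start lies within the CTNNB1 window, whose count of starts, 1, is the lowest of the 9 genes.

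ZNRF3 (chr22:29279560-29453476, plus strand), the antagonist of the pathway, carried all of its 5 peaks in introns. An overexpressed Millipore peak of rank 10473 (chr22:29299901-29299999, 87.9%) met a basal Perseus peak of rank 1755 (chr22:29299951-29300099, 26.5%), 20.4 and 20.5 kb downstream of the start. The better-ranked peaks were each in a single list: basal Perseus at chr22:29320001-29320149 (rank 899) and overexpressed Millipore at chr22:29428801-29428999 (rank 706). Basal Perseus also had chr22:29299601-29299699 (rank 3034). No ZNRF3 peak held the SF-1 sequence, and neither basal Millipore nor overexpressed Perseus had a peak in the window.

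PRKAR1A (chr17:66507921-66547460, plus strand), the protein kinase A inhibitor subunit, had peaks in both basal lists and in neither overexpressed list. This pattern was found for 1 of the 9 genes and for 1.29% of all protein-coding genes. The shared place, printed above, lies 38.0 kb upstream of the canonical start within an intron of a noncoding transcript. It ranked 3118 in basal Millipore (chr17:66470501-66470649, 71%) and 4791 in basal Perseus (chr17:66470451-66470699, 72.4%), both in the lower part of their lists. When only ranks up to 4393 were kept in every list, the window kept peaks in both basal lists, but the Perseus peak of the shared place was lost. Only the longer Perseus peak contains CAAGGCCG, which falls outside the bases that both lists called.

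The other PRKAR1A peaks were in 1 list each. Basal Perseus had a peak 137 bases inside the start of WIPI1 (chr17:66453451-66453549, rank 5056) and 2 peaks in introns of FAM20A, of which chr17:66572451-66572599 (rank 2375) holds CAAGGTCA and chr17:66587851-66587949 ranked 6072. Basal Millipore had 1 more FAM20A intron peak, chr17:66560701-66560799, of rank 4145 (94.4%). None of the 6 peaks lies in PRKAR1A itself, and the nearest is 13.3 kb beyond its 3′ end.

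In the G1/S checkpoint, CDK4 (chr12:58141510-58149796, minus strand) carried the peak with the lowest rank number of all 69. Overexpressed Perseus called chr12:58146001-58146299 at rank 161 (2.16%) and basal Perseus called chr12:58145851-58146299 at rank 240 (3.63%). Both cover the canonical start at position 58146093 and have their centre in annotated 5′ UTR, and neither holds the SF-1 sequence. Neither Millipore list had a peak there, and the 1 Millipore peak in the window is intergenic, 76.9 kb downstream (chr12:58069101-58069199, rank 10832, 90.9%).

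Overexpressed Perseus had 3 further peaks near CDK4. The best of them, chr12:58166201-58166299 (rank 1174), lies 147 bases upstream of the start of EEF1AKMT3. The others, chr12:58239401-58239549 in an intron of CTDSP2 and chr12:58067851-58067949 between genes, ranked 6321 and 5862. The CDK4 window is crowded with 12 protein-coding starts, against a median of 4 for all genes.

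RB1 (chr13:48877880-49173572, plus strand) and CDKN2A (chr9:21967751-21995300, minus strand), the tumour suppressors of the checkpoint, each had 1 peak in each overexpressed list and none in a basal list. That pattern held for 2 of the 9 genes and for 7.42% of all genes. At RB1 the overexpressed Millipore peak lies 437 bases upstream of the start, in an exon of the divergent RNA RB1-DT (chr13:48877401-48877499). It ranked 11599 of 11910 (97.4%). The overexpressed Perseus peak (chr13:48807401-48807499, rank 4631, 62.1%) is at the start of ITM2B, 70.4 kb upstream. When only ranks up to 4393 were kept in every list, all 4 peaks of RB1 and CDKN2A were lost, and the pattern with them. The RB1 gene body, the longest of the 9 genes at 296 kb, held no peak of any list.

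At CDKN2A the overexpressed Perseus peak (chr9:21994951-21995049) lies 20.1 kb upstream of the canonical start. It is 128 bases upstream of the start of the transcript CDKN2A-204, in the 5′ UTR of a longer CDKN2A transcript and in an exon of the antisense gene CDKN2B-AS1. It ranked 7017 of 7453 (94.2%). The overexpressed Millipore peak (chr9:21872801-21873049, rank 8457, 71%) is in an intron of MTAP, 102 kb downstream of the start. No peak of RB1 or CDKN2A was called in a second list, and none holds the SF-1 sequence. Copy number at these loci in the cells was not analysed here.

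TERT (chr5:1253262-1295183, minus strand) had 10 overexpressed Millipore, 3 basal Perseus and 2 overexpressed Perseus peaks. Its canonical start, position 1295183, had none: the nearest inside the gene was an overexpressed Millipore peak 13.6 kb into it, in an intron (chr5:1281551-1281699, rank 7024). The other intronic peaks, at chr5:1265551-1265749 and chr5:1272451-1272549, were also from overexpressed Millipore and ranked 2701 and 10414. The first of these lies 989 bases inside the start of TERT-205, an internal transcript, which is the only reason TERT counts among the genes with a peak within 1 kb of a start.

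Higher-ranked peaks stood on both sides of TERT. Upstream, at the start of CLPTM1L and 50.1 kb from the TERT start, basal Perseus called chr5:1345201-1345449 at rank 264 (3.99%) and overexpressed Perseus chr5:1345251-1345399 at rank 5998 (80.5%). The best-ranked overexpressed Millipore peak near any of the genes, chr5:1347301-1347849 (rank 246), is 52.4 kb upstream and contains CAAGGCCA. Downstream, in the intergenic place printed above, an overexpressed Millipore peak (chr5:1181701-1182099, rank 480) overlapped a basal Perseus peak (chr5:1181901-1181999, rank 4763), and both contain CAAGGCCA 113 kb from the start. At chr5:1156151-1156299 (overexpressed Perseus, rank 5085, with CAAGGTCA) and chr5:1156301-1156449 (basal Perseus, rank 2611), 1 base separated the peaks, so they did not count as shared.

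DAXX (chr6:33286335-33290793, minus strand) had 7 peaks, none inside the gene, in a window with 15 protein-coding starts, the most of the 9 genes. In 3 lists a peak lay at the start of KIFC1, a mitotic kinesin gene 68.6 to 68.7 kb upstream of the DAXX start. Overexpressed Millipore had it at chr6:33359251-33359399 (rank 9646, 81%), basal Perseus at chr6:33359301-33359599 (rank 2114, 32%) and overexpressed Perseus at chr6:33359351-33359449 (rank 6143, 82.4%). The repeat printed above, within B3GALT4 and WDR46, was called in both overexpressed lists, with rank 3746 for Millipore (chr6:33247951-33248199) and 3091 for Perseus (chr6:33247951-33248149). The peaks nearest to DAXX were in TAPBP. Basal Perseus had chr6:33280401-33280849 (rank 2653), which holds CAAGGTCA, and overexpressed Millipore had chr6:33281401-33281549 (rank 7413), 551 bases away.

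MEN1 (chr11:64570982-64578766, minus strand) had 10 overexpressed Millipore, 2 basal Perseus and 3 overexpressed Perseus peaks. A single peak lies in the gene, in an intron 5.7 kb from the start (overexpressed Millipore, chr11:64572201-64572449, rank 8723). The place called in 3 lists has its peak centres between genes, 83.9 to 84 kb upstream of the MEN1 start. These centres lie 15.8 to 15.9 kb upstream of the start of EHD1, an endocytic recycling gene. Of the 349 bases called in all 3 lists, 267 are printed above. The rest were left out because they include annotated untranslated bases. The place ranked 489 (7.39%) in basal Perseus and 956 (12.8%) in overexpressed Perseus, both at chr11:64661751-64662099. In overexpressed Millipore it ranked 4656 (39.1%), at chr11:64661701-64662249. Each of these peaks holds CAAGGCCA and CAAGGTCA, the only peaks among the 69 with 2 matches.

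Both Perseus lists also had a peak at the start of RASGRP2, 66.2 kb downstream of the MEN1 start, with rank 1806 in basal Perseus (chr11:64511701-64511899) and 6308 in overexpressed Perseus (chr11:64511701-64511849). The best-ranked overexpressed Millipore peak near MEN1, rank 735 at chr11:64623151-64623449, holds CAAGGCCA and lies 45.3 kb upstream. The third overexpressed Perseus peak, rank 3180 (chr11:64561601-64561749), is in an intron of MAP4K2, 1 base from an overexpressed Millipore peak. The other overexpressed Millipore peaks near MEN1 ranked between 4667 and 11132 and were called in that list alone.

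Of the 55 places, 44 were called in 1 list, 8 in 2 and 3 in 3, and none was called in all 4. Counted as peaks, 25 of the 69 (36.2%, Wilson 95% interval 25.9 to 48) overlapped a peak of another list, against 27% of all 30372 peaks. These 25 peaks make up only 11 places, and the interval counts each peak separately, so it is too narrow. A peak that overlaps a peak of another list was found near 7 of the 9 genes, all but RB1 and CDKN2A, against 38.4% of all protein-coding genes. A place called in 3 or more lists was found near CTNNB1, DAXX and MEN1, 3 of 9, against 14.8%. In the whole lists, the share of peaks overlapping a peak of any other list was 20.9% for basal Millipore and 16.6% for overexpressed Millipore. It was 37.7% for basal Perseus and 37.9% for overexpressed Perseus. Such shares were not computed for single pairs of lists, so the pair counts that follow describe these places only. Basal and overexpressed Millipore shared none of their 4 and 31 places. Basal and overexpressed Perseus shared 6 places, 33.3% of the former's 18 and 37.5% of the latter's 16, near CTNNB1, CDK4, TERT, DAXX and MEN1. At the same dosage, the antibodies shared 1 place with basal SF-1 (PRKAR1A) and 4 with overexpressed SF-1 (near CTNNB1, DAXX and MEN1). Overexpressed Millipore and basal Perseus, which differ in both antibody and dosage, shared 6 places, 19.4% of the former's 31 and 33.3% of the latter's 18, near CTNNB1, ZNRF3, TERT, DAXX and MEN1.

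Of the 69 peaks, 25 overlapped another list, with a median rank of 31.5% of the list, against 64.9% for the other 44. Over all peaks the medians were 32.2% and 55.6%. Since sharing over all peaks helped to set which end of the ranks was read as best, these values describe the peaks and are no separate result. By list, the median rank of the peaks near the 9 genes was 79.8% in basal Millipore (4 peaks), 62.2% in overexpressed Millipore (31), 37.7% in basal Perseus (18) and 52.4% in overexpressed Perseus (16).

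**Figure D4:**
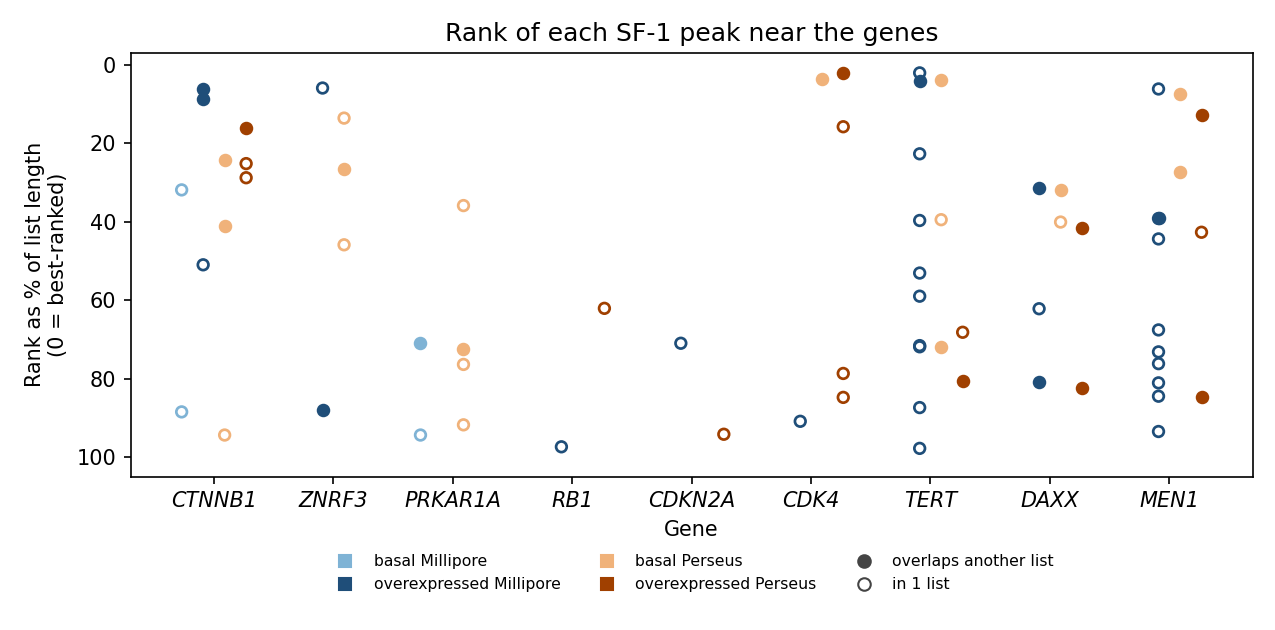
Rank of each of the 69 peaks as a percentage of the length of its list, with the best-ranked at the top. Filled circles overlap a peak of another list and open circles do not. The CDK4 promoter peaks (2.16% and 3.63%) and TERT peaks at 2.07%, 3.99% and 4.03% lie at the top, and the RB1 promoter peak, at 97.4%, lies near the bottom.

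The number of peaks moved with SF-1 dosage in different ways for the 2 antibodies. With Millipore, more peaks were called in the overexpressed than in the basal list near 8 of the 9 genes, all but PRKAR1A, against 58.5% of all genes, and the overexpressed list is 11910 peaks long against 4393. With Perseus, more were called near 4, RB1, CDKN2A, CDK4 and MEN1, against 31.9%. At ZNRF3 and TERT the counts moved in opposite directions, up with Millipore and down with Perseus. This happened for 2 of the 9 genes and for 13.7% of all genes. Dosage and the length of a list cannot be told apart from counts alone. When each list was shortened to its 4393 best-ranked peaks, the numbers near the 9 genes were 4 and 8 for Millipore and 13 and 8 for Perseus, basal first.

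The SF-1 sequence was found in 12 of the 69 peaks, or 17.4% (Wilson 95% interval 10.2 to 28), close to the 18.1% of all 30372 peaks, and well above the 2.69% of windows of the same length 5 kb to either side of all peaks. These 12 lay near CTNNB1 (1), PRKAR1A (2), TERT (4), DAXX (1) and MEN1 (4). No peak of ZNRF3, RB1, CDKN2A or CDK4 contained it, which says only that these letters are not within the called bases. By list it occurred in 0 of 4 peaks for basal Millipore, 4 of 31 for overexpressed Millipore, 5 of 18 for basal Perseus and 3 of 16 for overexpressed Perseus. In the whole lists the shares were 17.5%, 13.8%, 23.9% and 20.4%, in the same order. The SF-1 sequence was found in 6 of the 25 shared peaks (24%, 11.5 to 43.4) and in 6 of the 44 single ones (13.6%, 6.4 to 26.7). Over all peaks the shares were 34.4% and 12.1%. The 6 shared peaks with it were 3 at the distal MEN1 place, 2 at the distal TERT place and 1 at the distal PRKAR1A place. The intervals given here count overlapping peaks of 1 place separately, so they are too narrow. The difference between shared and single peaks was not tested. The peaks near the genes had a median GC content of 61.8%, against 53% for all peaks.

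Other genes of the same pathways were read in the same way, 77 genes in all, by peaks within 100 kb. Their share with a peak was 36.4% in basal Millipore, 68.8% in overexpressed Millipore, 63.6% in basal Perseus and 72.7% in overexpressed Perseus. Over all protein-coding genes the shares were 36.5%, 67.9%, 52.6% and 56.7%. A peak in some list was found for 68 of the 77 (88.3%, against 84.3% of all genes). A place called in 3 or more lists lay near 10 of them (13%, against 14.8% of all genes), a share no higher than the background, so the places below are described one at a time and not as a property of the pathways. In the Wnt pathway (20 genes) these were AXIN2, a feedback inhibitor and target of beta-catenin, and LRP5, a Wnt co-receptor. The AXIN2 place, inside the gene at chr17:63528351-63528599, ranked 66 in basal Millipore, 1031 in basal Perseus and 570 in overexpressed Perseus, and all 3 peaks hold the SF-1 sequence. In contrast to the CTNNB1 promoter, it was called by the Millipore antibody with basal SF-1. The LRP5 place (chr11:67981151-67981299) is nearest to KMT5B, and none of its peaks holds the sequence.

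In the cAMP pathway (14 genes) the places lay near PRKAR2B, GNAS and PDE11A, with 3 lists each. GNAS, the stimulatory G protein subunit, had a place at chr20:57392801-57393249, 73468 bases upstream of its canonical start. It ranked 140 in overexpressed Millipore, 2148 in basal Perseus and 1517 in overexpressed Perseus, with the SF-1 sequence in all 3 peaks. At PRKAR2B (chr7:106620401-106620549, 64692 bases upstream of the start) the ranks were 523, 2429 and 4724 in the same lists. At PDE11A, a cAMP and cGMP phosphodiesterase, the place (chr2:178549551-178549849) is in the gene, 387779 bases downstream of its start. The nearest protein-coding start is that of TTC30A. The PDE11A place ranked 119 in basal Millipore, 550 in basal Perseus and 1423 in overexpressed Perseus. No peak of the PRKAR2B and PDE11A places holds the SF-1 sequence.

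Among the cell cycle genes, CCNE1 had such a place. The CCNE1 place (chr19:30292201-30292449), 10.6 kb upstream of this G1/S cyclin gene, ranked 695 in basal Millipore, 6130 in basal Perseus and 3031 in overexpressed Perseus. All 3 of its peaks hold the SF-1 sequence. Of the 13 telomere and chromatin genes, KMT2B had 2 places called in all 4 lists, each with the SF-1 sequence in all 4 peaks. Its product is a histone methyltransferase that associates with menin. The place at chr19:36258451-36258999 lies 29 kb outside KMT2B and is nearest to the start of ARHGAP33. The place at chr19:36224701-36224949 lies inside KMT2B but is nearest to the start of IGFLR1. The KMT2B window holds 16 protein-coding starts. Among the other adrenocortical tumour genes, CACNA1D, a calcium channel gene, had an intragenic place in all 4 lists (chr3:53557851-53558049), without the SF-1 sequence in any of its peaks. Genes without any peak in the 4 lists included LGR4, FZD5, CTNNBIP1, CREB1, RBL2, ATRX, KDM6A and IGF2.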

How the data were processed

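ChIP-seq of SF-1 was measured in 4 conditions, each deposited by the authors as 1 peak list, and an input without a peak list. The authors mapped reads to hg19 with ELAND (the submitters' processing notes name CASAVA 1.6) and called peaks with CisGenome on pooled replicates against input. In the deposited files the first score is the rank, whose basis and direction are not given in the sources used here (1 was read as the best), and the second score is 1000 for every peak. Read depth is not given.

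Starts were made 1-based. Genes, transcript starts and sequence came from GENCODE release 44 on GRCh37, the same build as hg19. A gene's canonical start is that of its MANE Select or else its Ensembl canonical transcript. Peaks of different lists that overlapped by at least 1 bp were 1 place. No test was run, since each condition is 1 pooled list. Intervals are Wilson (shares) or exact Poisson (counts) at 95% and cover counting error only. They treat peaks as independent, also those that overlap at 1 place, and are too narrow to that extent. Background shares are over all 20163 protein-coding genes treated alike. Counting, overlap and sequence search were checked on simulated peaks. Places were described in full for genes with few peaks. For CTNNB1, TERT and MEN1 the best-ranked peak of each list, the peak nearest the start and all shared peaks were described, and further peaks of these genes were chosen after their values were seen. Some genes of the pathway lists are not reported here by name. The genes and the pathway lists were chosen with earlier results of these data known. Python 3.11.15, numpy 2.4.6, pandas 2.3.3, scipy 1.17.1 and matplotlib 3.10.9 were used.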

Additional observations from a re-analysis of the deposited data

Results flagged for a closer look

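The change in the number of peaks from basal to overexpressed SF-1 had opposite signs with the 2 antibodies in 3 cases, and in each the difference between antibodies was not tested, since every condition is 1 pooled list. ZNRF3 gained 2 peaks with Millipore (0 and 2), and its change with Perseus was -3 (3 and 0). TERT gained 10 with Millipore (0 and 10), and its change with Perseus was -1 (3 and 2), a step of a single peak. Over all 9 genes the change was 27 with Millipore (4 and 31) and -2 with Perseus (18 and 16). The whole lists went from 4393 to 11910 peaks with Millipore and from 6616 to 7453 with Perseus. With each list cut to 4393 peaks, the counts were 4 and 8 with Millipore and 13 and 8 with Perseus. More peaks with Millipore and fewer with Perseus, as at ZNRF3 and TERT, were found for 13.7% of all protein-coding genes.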

How the results depend on the processing

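Measuring from the outermost start, counting any base of a peak and merging peaks within 500 bp each left all 9 counts within 1.5 times, and 47 of the 80 values over all settings stayed there or inside the interval. Counts below are in the order basal Millipore, overexpressed Millipore, basal Perseus, overexpressed Perseus, and only those that left that range are given. With 50 kb in place of 100 kb, the peaks were 20, 11 and 8 in the last 3 lists, and places in more than 1 list 6 rather than 11. With 10 kb, peaks were 0, 12, 6 and 6, genes with a peak 0 in basal Millipore and 4 in each Perseus list, and shared places 3. With 250 kb, peaks were 12, 70, 33 and 34, basal Millipore reached 8 genes, and shared places were 20. With lists of equal length, both overexpressed lists had 8 peaks, near 5 genes (Millipore) and 4 genes (Perseus), and shared places were 5. In the better-ranked part of each list (the first 50% of ranks), peaks were 1, 12 and 8 in basal Millipore, overexpressed Millipore and overexpressed Perseus, near 1, 5 and 4 genes, and shared places were 5. Requiring an overlap of 50% of both peaks left 7 shared places. CAAGGTCA alone was in 8.7% of the peaks (9.99% of all peaks). The canonical start only, an alternative chosen after seeing the data, gave 3 genes rather than 5. No paired analysis was possible because each condition is 1 pooled list. Pooled lists without depth or replicate values limit every comparison: a gene can enter or leave a list by its length.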
